A study of Mus musculus with 27 samples.

Results

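Kupffer cells are the resident macrophages of the liver, and the liver X receptors (LXRs) are nuclear receptors that keep part of their identity genes active. The sites described here are 341 places in the genome where LXR was bound in Kupffer cells on both diets, but with a much lower binding score under a diet used to model non-alcoholic steatohepatitis, NASH for short. Members were chosen by the LXR scores themselves. Each is a pair of overlapping LXR sites, 1 from each diet's list, whose NASH score is at most 0.4 of the control score and whose control score is at least 60. They are 0.933% of the 36560 LXR pairs and 1.64% of the 20804 pairs with a control score of at least 60. The score is the authors' deposited enrichScore, and each list joins the 2 LXR libraries of a diet, so no LXR value per library is given and the scores that chose the members carry no test.

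The series holds 27 chromatin immunoprecipitation (ChIP-seq) samples from C57BL/6J mice. The NASH diet group (KC-N) and the control diet group (KC-H) were both Kupffer cells sorted, per the labels, for strong F4/80 staining and for Tim4. Each diet had 2 libraries each for LXR, the coactivator P300, the stress-induced factor ATF3 and H3K27ac, a histone mark of active enhancers and promoters. Age, sex and time on diet are not given in the labels. The gate on Tim4, the product of Timd4, means that cells without that protein were left out of both groups. LXR sites were present on both lists at Adgre1, which encodes F4/80, and at the Kupffer cell genes Clec4f, Cd5l, Vsig4 and Nr1h3.

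LXRs bind DNA with a retinoid X receptor partner and respond to oxidised cholesterol. In macrophages they are best known for switching on cholesterol export genes such as Abca1 and Abcg1, and in Kupffer cells they act beside lineage factors at enhancers. P300 acetylates histones at active enhancers, and ATF3 is a member of the ATF/CREB family that binds sites related to those of AP-1. Among other things, a lower ChIP score can come from less factor per cell or from fewer cells in which the site is bound. These cannot be told apart in pooled cells. Input samples labelled for LXR alone exist for control cells only, while both diets have inputs labelled for LXR with P300. Whether this difference bears on the LXR scores was not tested.

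Of the 341 members, 46 overlapped a RefSeq promoter window (GRCm38.p6, 250 bases before to 50 after a gene's start). The promoters of Plac8, Hpn and Chp2 are shown because the weakened LXR site there lay under an accessible window in which H3K27ac was also called lower in NASH. All of these windows were kept by the filter on low values, described below, through the control libraries alone. Their calls are therefore no support of their own. Capitals mark the bases that lie inside the LXR site of the control list, 5′ to 3′ on the gene's strand.
Plac8, chr5:100572156-100572455, minus strand: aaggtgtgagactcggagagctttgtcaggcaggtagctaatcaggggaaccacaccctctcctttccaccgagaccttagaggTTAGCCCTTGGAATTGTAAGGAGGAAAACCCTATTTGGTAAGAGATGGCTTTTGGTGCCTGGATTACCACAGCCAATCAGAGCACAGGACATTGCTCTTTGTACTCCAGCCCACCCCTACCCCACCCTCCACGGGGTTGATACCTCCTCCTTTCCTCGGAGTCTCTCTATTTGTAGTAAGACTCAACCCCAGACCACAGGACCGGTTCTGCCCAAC
Hpn, chr7:31110948-31111247, minus strand: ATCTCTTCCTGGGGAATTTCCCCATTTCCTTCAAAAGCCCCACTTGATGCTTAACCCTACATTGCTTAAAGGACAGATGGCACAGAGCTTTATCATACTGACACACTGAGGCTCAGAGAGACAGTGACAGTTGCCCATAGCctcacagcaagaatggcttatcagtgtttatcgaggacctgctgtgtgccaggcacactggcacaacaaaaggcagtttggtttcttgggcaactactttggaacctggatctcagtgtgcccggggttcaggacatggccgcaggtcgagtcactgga
Chp2, chr7:122219246-122219545, plus strand: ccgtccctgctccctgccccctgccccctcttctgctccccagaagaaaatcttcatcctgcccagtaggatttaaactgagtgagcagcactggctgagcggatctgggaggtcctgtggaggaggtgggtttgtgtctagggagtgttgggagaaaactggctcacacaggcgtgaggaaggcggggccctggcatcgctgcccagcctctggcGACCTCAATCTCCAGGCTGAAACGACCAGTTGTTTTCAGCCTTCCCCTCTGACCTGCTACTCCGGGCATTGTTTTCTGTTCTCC
The LXR site covered 216 bases of the Plac8 window, 141 of the Hpn window and 84 of the Chp2 window. The hexamer to which LXR and its partner bind was searched as AGGTCA on both strands. It was found in the Chp2 window, at base 266 within the LXR site and on the other strand, and in neither of the other windows. Among the 56 promoter windows under weakened sites, 7 held it (12.5%), against 15.1% of 1166 windows under steady sites, 13.7% of 4732 under all sites with a control score of at least 60 and 16.3% of all 32817 distinct windows. The ETS-type word GAGGAAG, on both strands, was in 5 of the 56 windows under weakened sites (8.93%), 17.2% under steady sites, 15.3% under all sites with that score and 13.6% of all. The AP-1 word TGANTCA was in 2 of the 56 (3.57%), 7.46%, 4.97% and 7.81% of the same windows, in the same order. The CRE word TGACGTCA was in 0 of the 56, 3.26%, 3.91% and 1.79% in that order. These counts are small. A stretch of bases can hold more than 1 of these words, and a match or its absence in 300 bases describes the letters alone.

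In NASH cells the 341 sites had a median LXR score of 31 (20 to 139), against a median of 99 (60 to 367) in control cells. The median NASH over control ratio was 0.348, and the lowest was 0.104. Among all 36560 pairs the median ratio was 0.8125, so the NASH list scored lower at most sites. The highest control score belonged to a site by CYTB on the mitochondrial genome, with 139 in NASH and 367 in control cells. Next came a site 42077 bases from the start of Aldh8a1, an aldehyde dehydrogenase gene, with 94 in NASH and 342 in control cells. The site upstream of Slc7a14, a solute carrier gene, had 45 in NASH and 288 in control cells, and that in Lingo2, which encodes a neuronal membrane protein, had 79 and 288 in the same order. The site by Tcim had 62 in NASH and 246 in control cells.

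**Figure D1:**
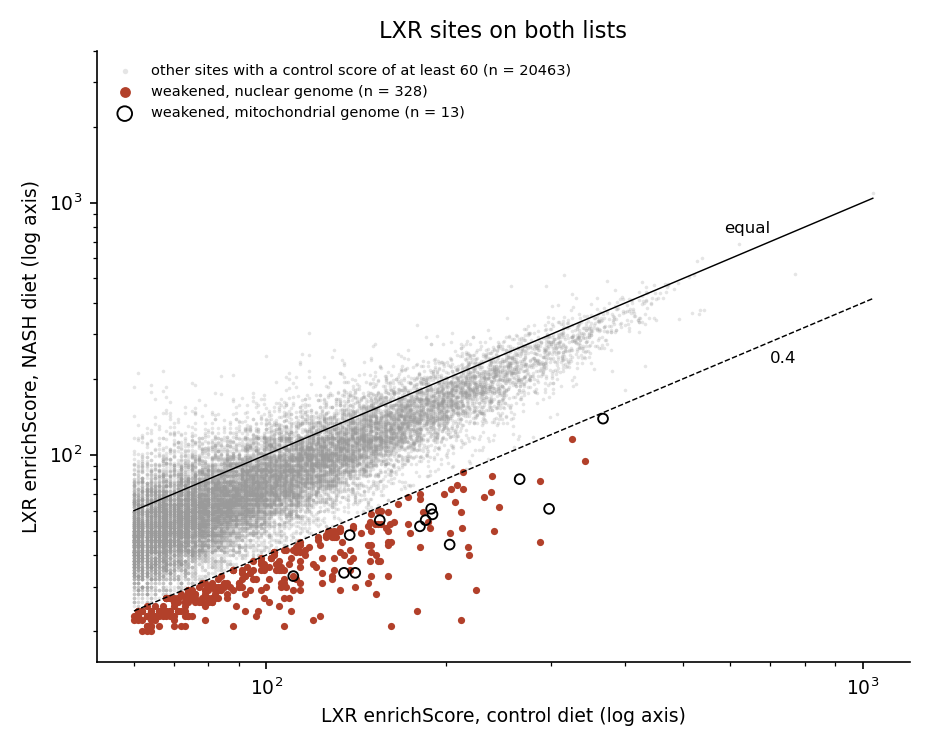
LXR enrichScore in NASH cells (vertical, log axis) against control cells (horizontal, log axis) for each LXR site on both lists with a control score of at least 60. The 328 weakened nuclear sites are red, the 13 on the mitochondrial genome are open circles and other sites are grey; the dashed line is a ratio of 0.4, which chose the members.

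The lowest ratio lay upstream of Rrp15, a ribosomal RNA processing gene, with a score of 22 in NASH and 212 in control cells. An intronic site of Tnfrsf19, a TNF receptor family member, had 29 in NASH and 225 in control cells. A site in a region 201 kb upstream of Snx7, a sorting nexin gene, had 24 in NASH and 179 in control cells. A site far from Fzd8, a Wnt receptor gene, had 21 in NASH and 162 in control cells, and an intronic site of Tenm2 had 28 and 153 in the same order. These lowest ratios sat at NASH scores near the bottom of the list, and 151 of the 341 members had the top reproducibility score of 1000 on the NASH list, against 336 on the control list. Just inside the ratio limit were sites by Mad1l1 (0.4), Lst1 (0.398) and Atg4c (0.398), and just outside it was a site by AY702102 (0.401), with 2 others at 0.402. Just inside the score limit were sites by Tiam1 (60), Snx7 (60) and Rgl1 (61), and 3 sites with a control score of 58 were just outside. In 12 pairs the sites of the lists overlapped by under 50% of the shorter one.

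Weakened sites were found on the mitochondrial genome far more often than elsewhere: 13 of its 14 pairs with a control score of at least 60 were members, against 0.789% to 2.32% on chromosomes 1 to 19 and X. The mitochondrial genome is a small circle present in many copies per cell. P300 was also called there, with scores of 561 in NASH and 593 in control cells at the strongest CYTB site and ratios of 0.868 to 0.968 at the 9 members with P300 on both lists. Whether these 13 sites hold LXR was not tested, and the shares below that they touch are also given without them. The median scores without them were 31 in NASH and 96.5 in control cells.

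Of the other members, 63 lay within 50000 bases of another one, at 27 places. All 4 scored LXR sites of Timd4 were weakened, with 51, 54, 45 and 21 in NASH cells and 213, 164, 162 and 107 in control cells at the same sites. Timd4 encodes Tim4, the phosphatidylserine receptor with which Kupffer cells take up dying cells. Counted by nearest gene, 3 of 3 scored sites of Lingo2 were weakened, 3 of 4 of Zbtb7c, 3 of 6 of Lepr, 1 of 4 of Leprot, 3 of 6 of Adam19, 3 of 13 of Fos and 3 of 15 of Rgl1.

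The lists of Kupffer cell genes, LXR targets and other groups held the nearest gene of 14 members. On the list of 39 Kupffer cell identity genes, 35 had scored LXR sites, 162 in all. Of these, 7 (4.32%) by 4 genes were weakened, beside 1.64% of all scored sites: Timd4, Marco, Slc40a1 and Pcolce2. Timd4 alone held 4 of the 7, so the higher share rests mostly on that gene. The median LXR ratio over these 162 sites was 0.786, beside 0.775 over all pairs with a control score of at least 60. Marco, a scavenger receptor gene, had a single scored site, 12753 bases upstream, with 40 in NASH and 219 in control cells. Slc40a1, the gene of the iron exporter ferroportin, had 1 weakened site of 12, with 35 in NASH and 98 in control cells. Pcolce2, which encodes an enhancer of procollagen processing, had 1 of 4, with 26 in NASH and 101 in control cells. A second intronic Pcolce2 site, under 1 kb away, had 418 in NASH and 453 in control cells. So a weakened site could stand beside a neighbour that kept most of its score. The list of scavenger and phagocytosis genes had 5 weakened of 67 scored sites (7.46%), those of Timd4 and Marco. The iron and heme list had 1 of 66 (1.52%), that of Slc40a1, a share near that of all scored sites.

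On the list of 35 LXR target genes, 1 of 138 scored sites (0.725%) was weakened, the Pcolce2 site. The 15 sites of the cholesterol exporter gene Abca1 had ratios of 0.61 to 2.35, and the 7 of its relative Abcg1 had ratios of 0.814 to 1.28. At Cd5l, a secreted protein gene of tissue macrophages, the 7 ratios ran from 0.97 to 1.67. Clec4f, a Kupffer cell lectin gene, had 7 sites with ratios of 0.542 to 1.02. No site on the TGF-beta and BMP list (80), the inflammatory NF-kB list (87) or the cholesterol synthesis list (12) was weakened, beside 1.64% of all scored sites.

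Among macrophage transcription factor genes, 5 of 240 scored sites (2.08%) were weakened, by Fos, Nr4a1 and Mitf, a share near the 1.64% of all scored sites. Fos, a subunit of AP-1, had weakened sites 347 bases upstream of its start (35 in NASH and 104 in control cells), 6740 bases upstream (32 and 95 in that order) and 16669 bases downstream (27 and 68 in that order). Nr4a1, an orphan nuclear receptor induced early by many stimuli, had 9 scored sites with ratios of 0.389 to 0.783, the lowest being the weakened one (44 in NASH and 113 in control cells). Mitf, a regulator of lysosomal genes, had 1 weakened of 13, with 26 in NASH and 77 in control cells. On the Notch list 1 of 47 scored sites was weakened, by the coactivator gene Maml2, with 42 in NASH and 111 in control cells.

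**Figure D2:**
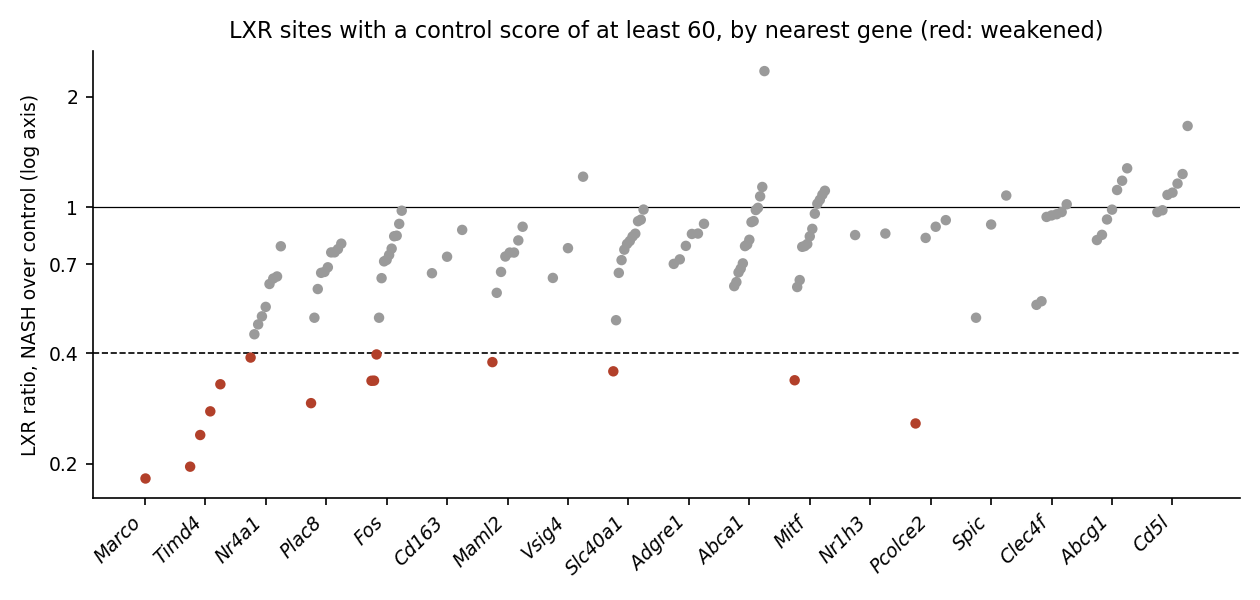
NASH over control ratio of LXR enrichScores (vertical, log axis) at every LXR site with a control score of at least 60 whose nearest gene is 1 of 18 genes (horizontal, ordered by median ratio). Weakened sites are red; all 4 of Timd4 and the 1 of Marco lie under the dashed line at 0.4, while Abcg1 and Cd5l have none there.

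P300 was found at fewer weakened sites than at other LXR sites, most of all in NASH cells. On the NASH P300 list, 187 of the 341 weakened sites had an overlapping site (54.8%, exact Clopper-Pearson 95% interval 49.4 to 60.2). The share was 95.1% of the 8560 steady sites, which had a control score of at least 60 and a ratio of 0.8 to 1.25, and 91.8% of all 20804. On the control P300 list the shares were 56.3% of weakened, 72.2% of steady and 70.6% of all. P300 was on the control list alone at 15.8% of weakened sites, 0.876% of steady and 1.99% of all. It was on neither list at 29.3% of weakened sites, 4.03% of steady and 6.19% of all. Without the mitochondrial sites, P300 was on the NASH list at 53.4% of weakened sites, on the control list at 55.5%, on the control list alone at 16.2% and on neither at 30.5%. These intervals cover counting error only, since each list is 1 call on a diet's libraries, and no test across sites was run.

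At the 138 weakened sites with P300 on both lists, the median NASH over control ratio of P300 scores was 1.40. It was 2.71 at steady sites and 2.41 at all LXR sites with a control score of at least 60. Over all 22671 P300 pairs, with or without LXR, it was 2.24. At the weakened sites without the mitochondrial ones it was 1.45. The P300 ratio was under 1 at 30 of the 138 weakened sites (21 without the mitochondrial ones) and at 0.799% of the 14275 P300 pairs at LXR sites with a control score of at least 60. At Marco, P300 had a score of 42 on the control list and no site on the NASH list. Timd4 gave the same picture at 2 of its 4 sites, with control scores of 49 and 28, and no P300 site on either list at the others. At the Nr4a1 site the P300 score was 80 in NASH and 38 in control cells, and at the Fos promoter site 49 in NASH and 35 in control cells.

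ATF3 followed the same order. It was listed in NASH cells at 18.8% of weakened sites (14.8 to 23.3), 82.0% of steady sites and 70.9% of all. In control cells the shares were 31.4%, 56.1% and 50.1% in that order. ATF3 was on the control list alone at 19.6% of weakened sites, 2.89% of steady and 5.69% of all. Without the mitochondrial sites ATF3 was at 19.5% of weakened sites in NASH and 32.6% in control cells, and on the control list alone at 20.4%. The NASH lists were longer for both factors, with 52628 P300 and 38828 ATF3 sites in NASH cells, against 25219 and 16109 in control cells.

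**Figure D3:**
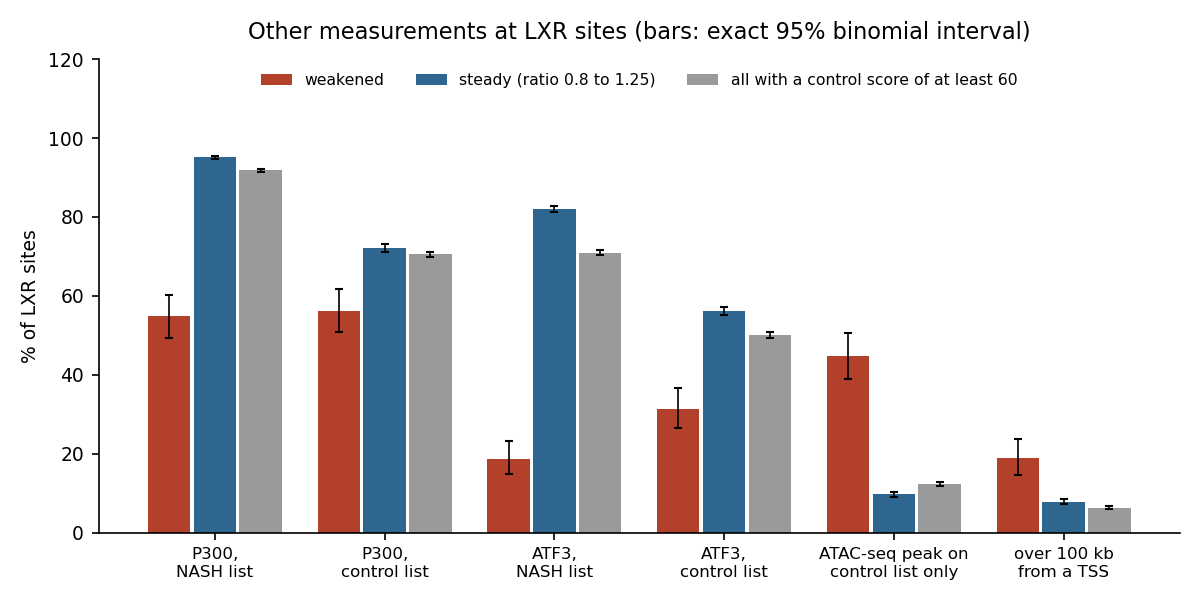
Share of LXR sites (vertical, %) that overlap a P300 or ATF3 site on either list, that lie in an ATAC-seq peak of the control list alone, or whose window is over 100000 bases from a start site. Bars are weakened, steady and all sites with a control score of at least 60, with exact 95% binomial intervals; weakened sites are lowest for P300 (54.8%) and ATF3 (18.8%) on the NASH lists and highest for control-only ATAC-seq peaks (44.7%).

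Accessible windows of the deposited H3K27ac table, which were merged ATAC-seq peaks, covered 291 of the 341 members (85.3%, or 88.7% without the mitochondrial sites), and 37 nuclear members had none. The window came from the control ATAC-seq list alone at 130 of these 291 members (44.7%, 38.9 to 50.6), against 9.71% of steady sites and 12.4% of all. The other ATAC-seq list was of Tim4-positive cells after 20 weeks of diet, per the file header, whereas for the NASH diet the LXR list and the P300 list were made from files named NASH30, per their headers, a name that is not explained. No label says whether the NASH ChIP libraries share the time of the ATAC-seq. Where the window was on both lists, P300 was on the NASH list at 78.0% of weakened and 95.2% of all sites. Where it was on the control list alone, the shares were 26.9% and 80.0%.

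Weakened sites tended to lie farther from start sites than other LXR sites. Of the 291, 55 windows (18.9%) were over 100000 bases from the nearest start site, against 7.85% for steady sites and 6.33% for all. The median distance was 15802 bases at weakened sites, 13608 at steady sites and 9019 over all. Promoters held 16.8% of weakened, 15.1% of steady and 25.1% of all sites. Introns held 38.5%, 42.7% and 37.5% in that order, and intergenic windows 38.1%, 37.5% and 32.8%.

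H3K27ac, an independent ChIP with 2 libraries per diet, was lower in NASH over the sum of these sites. The 314 windows under weakened sites summed to 2055 and 1787 normalised tags in the NASH libraries, against 3674 and 3163 in the control libraries, per 10000000 tags in each library. The NASH libraries lay below both control libraries, and the ratio of the group means was 0.562. Windows under steady sites had a ratio of 1.05, and all 70300 windows had 0.895. In 189 of the 314 windows (60.2%) both NASH libraries were below both control libraries, against 30.8% of all windows. In 13 (4.14%) both were above, against 14.8% of all. The library totals were 18749728 and 19231109 tags in NASH and 9468035 and 22615879 in control cells, so control replicate 1 was the shallowest and its low values are the least exact.

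The test of single windows (limma, log2 of the value plus 1) called a window when its adjusted p was under 0.05 and its log2 change at least 1 in size. It could be run on 144 of the 314 windows. It called 42 of them lower (29.2%) and 0 higher; over all 35947 windows tested, 4.59% were called lower and 2.0% higher. Of the 144, 71 were lower and 2 higher at an unadjusted p under 0.05, beside 17.3% and 5.85% of all tested windows. With TMM scaling, which sets the median change of all windows near 0, 33 were called lower and 2 higher, beside 2.51% and 3.31% of all windows. The call depends on the libraries: without NASH replicate 1, NASH replicate 2 or control replicate 1, it was made at 25, 15 and 23 windows. It was made at 8 windows with no filter and at 11 with DESeq2 on the recovered tags. The 2 higher windows under TMM were in Evl and Capza2, named here after their values were seen, with log2 changes of 1.20 and 1.18.

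The filter on low values matters for that count. Of the 144 windows, 48 reached the minimum in the control libraries alone, and 32 of the 42 calls were among them, so these windows were kept because they were high in control cells. Of the other 96, 10 were called lower (10.4%), against 2.74% of the 33392 windows of all kinds that did not pass through the control libraries alone. Over all 314 windows, fitted without a filter, the median log2 change was −0.74 relative to the median of all windows; over steady windows it was −0.01. Changes of single windows are given below relative to the median of all tested windows, which was −0.26 on the log2 scale. The SEs and p-values beside them belong to the fitted change, before that median was taken off. Of the 42 called windows, 20 were accessible on the control ATAC-seq list alone and 21 on both lists.

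At Pcolce2 the window under the weakened site (chromosome 9, 95681871 to 95682071, intron 5 of 8) had 6.93 and 9.36 normalised tags in NASH libraries, against 85.6 and 92.4 in control libraries. The log2 change was −3.05 with an SE of 0.30 and an adjusted p of 1.35e-05, and the groups were far apart. The Timd4 window in intron 3 (chromosome 11, 46817804 to 46818004) had no tag in either NASH library, against 8.45 and 16.4 in control libraries. Against the level that 3 tags per NASH library would give, it was at least 7.85-fold lower in NASH. This window was kept by the filter through the control libraries alone, so its call is no support of its own. The other Timd4 windows held at most 5.75 normalised tags in any library and were not tested.

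Hapln1, which encodes a link protein of hyaluronan matrix, had 4.27 and 1.56 in NASH against 28.5 and 35.4 in control libraries, 155739 bases upstream. Hpn, the gene of the membrane protease hepsin, had 4.80 and 4.68 in NASH against 30.6 and 29.6 in control libraries, in a window that reaches into the promoter shown above. At Chp2, a calcineurin-like protein gene, the window in the first exon had 2.67 and 1.56 in NASH against 21.1 and 19.0 in control libraries. These 3 windows fell by 2.90, 2.18 and 2.52 on the log2 scale, with adjusted p values of 6.79e-04, 0.00154 and 0.00258 (limma). In each of them both NASH libraries were below both control libraries, but all 3 were kept by the filter through the control libraries alone.

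Slc45a3, a sugar transporter family gene, had 3.20 and 1.04 in NASH against 22.2 and 17.2 in control libraries, a fall of 2.55 (adjusted p 0.00366), and was likewise kept through the control libraries alone. The windows of Pcolce2, Snhg12 and Nr1d1 and the tested Fos windows passed the filter otherwise. Snhg12, a host gene of small nucleolar RNAs, had 15.5 and 9.88 in NASH against 43.3 and 46.9 in control libraries, a fall of 1.52 (adjusted p 0.00321). Nr1d1, the gene of the circadian repressor REV-ERB alpha, had 15.5 and 11.4 in NASH against 42.2 and 48.2 in control libraries, a fall of 1.43 (adjusted p 0.00377). The calls at Snhg12 and Nr1d1 were lost without NASH replicate 2, at adjusted p values of 0.0555 and 0.0559.

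Slc7a14 had 0.530 and 0 in NASH against 8.45 and 7.52 in control libraries (adjusted p 0.0122). The Plac8 promoter window had 1.07 and 0 in NASH against 9.51 and 7.52 in control libraries (adjusted p 0.0159). Both calls rest on few tags: without NASH replicate 2 the adjusted p was 0.0711 at Slc7a14 and 0.121 at Plac8, and without control replicate 1 it was 0.0545 and 0.0726 in that order. The Marco window had 0 and 2.08 in NASH against 6.34 and 5.75 in control libraries, and was not called (adjusted p 0.0813). These windows, and that of Maml2, were also kept through the control libraries alone.

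At the tested Fos windows the mark did not follow the LXR score. The window at the weakened site 6740 bases upstream was not tested. The promoter window (chromosome 12, 85473436 to 85473650) had 61.9 and 45.8 in NASH against 60.2 and 57.0 in control libraries, and the libraries overlapped. Its fitted log2 change was −0.14 (SE 0.25, adjusted p 0.786, limma), which is 0.12 relative to all windows. The downstream Fos window had 18.1 and 12.5 in NASH against 19.0 and 14.2 in control libraries. Its fitted change was −0.12 (SE 0.38, adjusted p 0.886, limma), which is 0.14 relative to all windows. At both, the fitted change was negative with the authors' scaling and positive with TMM. The Maml2 window had 3.20 and 4.68 in NASH against 6.34 and 5.75 in control libraries, with an adjusted p of 0.596.

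**Figure D4:**
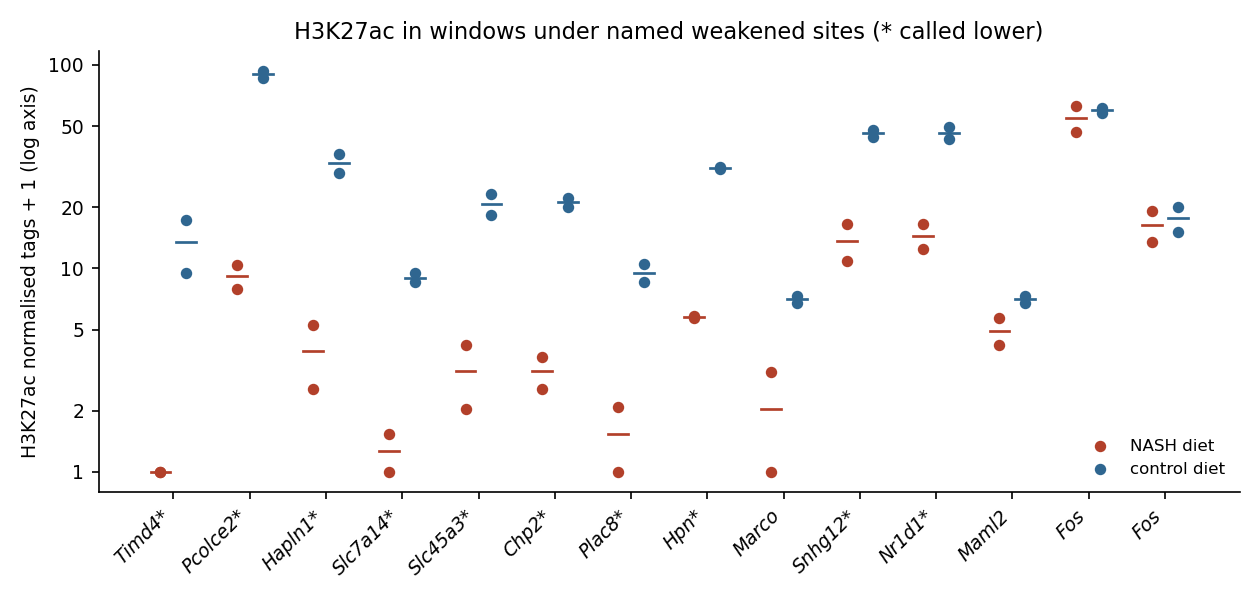
H3K27ac (vertical, normalised tags plus 1, log axis) in each library at the 14 tested windows of named weakened sites, ordered by their change; points are single libraries, NASH left of control, and lines are means. An asterisk marks the 10 windows called lower, among them Pcolce2 (6.93 and 9.36 in NASH, 85.6 and 92.4 in control libraries), while the libraries overlap at both Fos windows. Of the windows shown, only those of Pcolce2, Snhg12, Nr1d1 and Fos passed the filter on low values other than through the control libraries alone.

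Summed over all windows assigned to a gene, H3K27ac was lower at many genes nearest to weakened sites. Of 256 such genes, 221 were tested; 99 were called lower (44.8%) and 2 higher (0.905%), at an adjusted p under 0.05 with no limit on size. Over all 11593 genes tested, 11.0% were lower and 2.89% higher, and with TMM these were 6.18% and 7.06%, with 81 and 4 of the 221. Without NASH replicate 2, 47 were called lower, and with DESeq2 on the recovered tags 54. The median log2 change of the 221 was −0.44 relative to that of all genes. These genes were picked through a measure of the same cells, and a gene sum includes the window at the weakened site. The filter on low values was applied to gene sums too, so genes could be kept through the control libraries alone. Meg3, called lower, had 0 and 0 in NASH against 9.51 and 5.75 in control libraries. How many of the 99 were kept in this way was not counted, so their share includes this selection.

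Timd4 summed to 21.3 and 26.0 normalised tags in NASH against 257 and 256 in control libraries over 21 windows. The fitted log2 change was −3.39 (SE 0.22, adjusted p 6.72e-09, limma), which is −3.10 relative to all genes. Marco had 6.93 and 9.36 in NASH against 109 and 61.4 in control libraries (adjusted p 4.76e-06). Pcolce2 had 43.2 and 47.3 in NASH against 298 and 250 in control libraries (adjusted p 3.55e-08). All 3 had NASH libraries well below both control libraries. Both groups were sorted for Tim4, per the labels, and neither ChIP measures that protein.

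Slc40a1 had 260 and 201 in NASH against 472 and 442 in control libraries (adjusted p 8.80e-05). Nr4a1 had 115 and 108 in NASH against 277 and 219 in control libraries (adjusted p 1.48e-04). Plac8 had 123 and 98.3 in NASH against 301 and 193 in control libraries (adjusted p 6.66e-04), and this call was lost without NASH replicate 2 (adjusted p 0.0523). Mitf and Maml2 were called lower with the authors' scaling (adjusted p 0.0151 and 0.0267) but not with TMM (0.228 and 0.117). Without control replicate 1, NASH replicate 1 or NASH replicate 2 neither was called, with adjusted p values of 0.0927, 0.05003 and 0.167 for Mitf and 0.123, 0.183 and 0.124 for Maml2.

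Fos, with 737 and 665 in NASH against 745 and 867 in control libraries, was not called (adjusted p 0.230). Rrp15, where the LXR ratio was lowest, had 12.3 and 13.5 in NASH against 10.6 and 19.0 in control libraries (adjusted p 0.867). The 2 genes called higher were Evl, an actin regulator, with 366 and 328 in NASH against 210 and 240 in control libraries, and Fbxo32, a ubiquitin ligase subunit gene, with 267 and 239 against 174 and 191 in that order. They are named because they were the only 2, after their values were seen. Evl was not called without NASH replicate 1 (adjusted p 0.0834). Fbxo32 was not called without NASH replicate 1 (0.236), NASH replicate 2 (0.155) or control replicate 1 (0.20).

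Over the whole Kupffer cell identity list, 21 of 36 tested genes had lower summed H3K27ac and 0 had higher, including genes with no weakened site, beside 11.0% lower and 2.89% higher of all tested genes. The list summed to 5781 and 5234 in NASH against 8285 and 8228 in control libraries. On the LXR target list 6 of 28 were lower and 1 higher, and the list summed to 6112 and 5620 in NASH against 6785 and 6592 in control libraries. On the list for macrophages of lipid-rich and scarred tissue 1 of 25 was lower and 11 higher, with 1 weakened LXR site of 79, the Mitf one.

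Some genes near weakened sites, such as Aldh8a1 and Hpn, are known from hepatocytes. Of the 8 hepatocyte markers, 2 had scored LXR sites, none weakened, and the list summed to 30.4 and 30.7 in NASH against 24.3 and 23.9 in control libraries. Of the 7 monocyte markers, 5 were tested and Plac8 alone was lower (1 weakened LXR site of 16), and that list summed to 475 and 474 in NASH against 633 and 506 in control libraries. None of the endothelial (8), stellate (2), neutrophil (2), B cell (2), T and NK cell (1) or dendritic cell (17) scored sites was weakened. The cholangiocyte genes had no scored site. Over all scored sites 1.64% were weakened, so lists with so few sites cannot be told apart from that share. The endothelial list summed to 75.7 and 66.6 in NASH against 138 and 94.2 in control libraries, with 2 of its 3 tested genes lower. The dendritic cell list summed to 544 and 436 in NASH against 786 and 782 in control libraries, with 3 of its 5 tested genes lower. The neutrophil list summed to 80.0 and 75.4 in NASH against 125 and 134 in control libraries, with both tested genes lower. The cholangiocyte list summed to 40.0 and 24.4 in NASH against 18.0 and 13.7 in control libraries, with 1 of its 2 tested genes higher. Over all tested genes 11.0% were lower and 2.89% higher, and each of these lists had few tested genes. The part of these cells in the results was not tested.

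The weakened sites can be set beside sites of other LXR ratios. From the lowest LXR ratio to the highest, the share of windows with H3K27ac called lower was 29.2%, 11.7%, 5.12%, 2.93%, 2.22% and 0.423%, in bins bounded by 0.4, 0.5, 0.65, 0.8 and 1.25. The first of these shares includes the 48 windows kept because they were high in control cells. Without such windows the shares were 10.4%, 5.13%, 3.01%, 1.94%, 1.46% and 0.217% over the same bins. The share of sites with P300 on the NASH list was 54.8%, 82.9%, 87.5%, 92.6%, 95.1% and 96.2% over the same bins. That with ATF3 on the NASH list was 18.8%, 40.7%, 55.6%, 69.4%, 82.2% and 91.8%. The share in control-only ATAC-seq peaks was 44.7% in the lowest bin, 24.4% in the next and 5.80% in the highest.

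**Figure D5:**
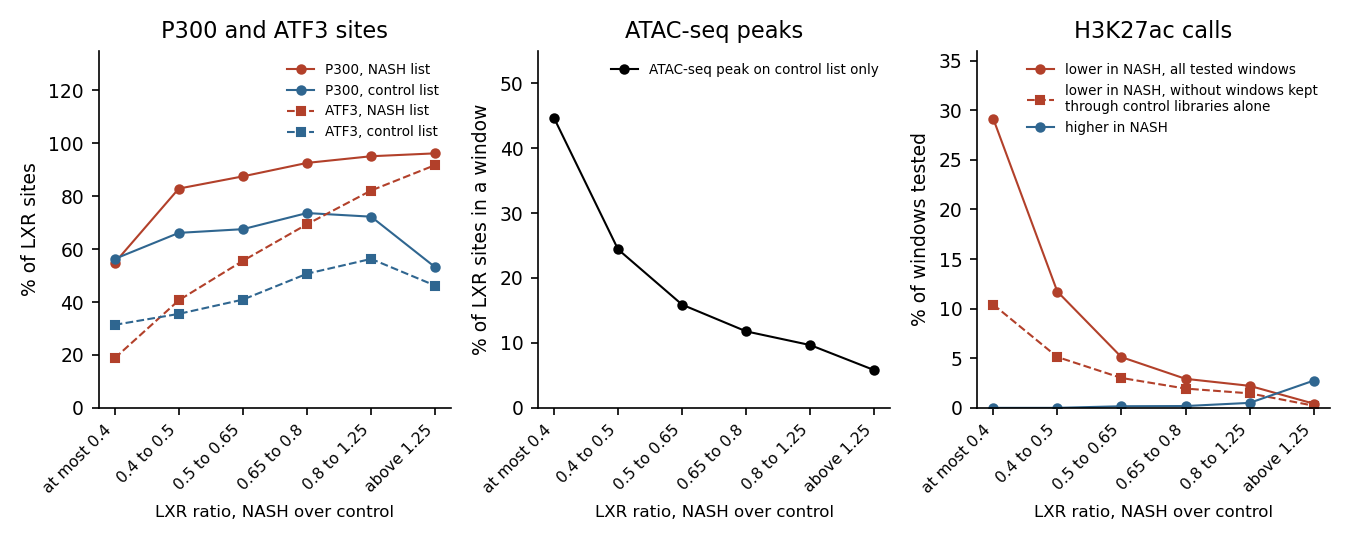
LXR sites with a control score of at least 60 in bins of their NASH over control LXR ratio (horizontal), with the share that has P300 or ATF3 on either list (left, %), the share of sites in windows that lie in control-only ATAC-seq peaks (middle, %) and the share of tested windows called lower or higher in H3K27ac (right, %). The lowest bin holds the 341 weakened sites; H3K27ac was called lower in 29.2% of its tested windows and in 2.22% at ratios of 0.8 to 1.25. The dashed line leaves out windows kept through the control libraries alone, and these shares are then 10.4% and 1.46%.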

How the data were processed

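Site positions, reproducibility scores and enrichScores for LXR, P300 and ATF3 come from lists that the authors deposited, 1 per factor and diet. Each list keeps sites reproducible between 2 libraries at an IDR threshold of 0.05, per the file headers of the LXR and P300 lists. The build is mm10 and the tools named are Bowtie2, HOMER and DESeq2, per the submitters' processing notes, with versions not given in the sources used here. H3K27ac was deposited as signal, tags per window normalised to 10000000 tags per library over 70300 merged ATAC-seq peaks, per the file headers. Whole tags were recovered for 100% of values within 0.02, so depth is known. Replicate libraries differed by more than sampling noise (chi-square per degree of freedom 1.78 in NASH and 2.14 in control cells). Nothing says that they came from separate animals, so p-values measure the spread between libraries, which may be technical.

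Positions were read as 1-based and closed. Sites were paired with bedtools 2.31.1 at an overlap of 1 base, and of several partners the highest score was taken. Windows were assigned to a site at an overlap of 1 base, and genes by the nearest gene in the deposited table, or by RefSeq spans (GRCm38.p6) for the 50 members without a window. H3K27ac was tested over all windows with limma 3.58.1 (trended variance, log2 of the value plus 1, edgeR's filterByExpr on recovered tags, Benjamini-Hochberg adjustment), NASH over control, with diet as the only term. The same was done on sums per gene. Alternatives were TMM, pseudocounts of 0.5 and 4, no filter, a replicate block, leaving out each library, edgeR 4.0.16 and DESeq2 1.42.0. The plan named edgeR as the main test only if raw counts were deposited. Since the values are a normalised signal, limma was kept as the main test, although tags could be recovered. It called 42 windows under weakened sites lower, beside 35 with edgeR on the recovered tags. The test was first run on simulated data.

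Named sites were the 8 with the highest control score, the 8 with the lowest ratio, up to 8 per direction by H3K27ac call (1 per gene, without predicted genes), those next to a listed gene, and the 3 on each side of each limit. The members, the 19 gene lists and these rules were chosen with earlier results of these data known. The 10 input samples and the peritoneal macrophage library were not used here. The ATF3 scores are not named in the files, so only the sites were used.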

Additional observations from a re-analysis of the deposited data

How the results depend on the processing

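The number of weakened sites is set by its limits. It was 116 when ratios were first divided by the median ratio of all pairs, 128 at a ratio of at most 0.33, 1177 at 0.5 and 168 at a control score of at least 100, against 341. It was 310 to 353 with a 50% overlap, a control score of at least 40, half-open positions or no mitochondrial sites, the last 2 chosen after seeing the data. With factor sites at or above their list's median reproducibility score, P300 was at 37.2% of weakened sites in NASH and 29.6% in control cells. For P300 this turned round the order of the diets, which was 54.8% in NASH and 56.3% in control cells with full lists. ATF3 was at 7.62% in NASH and 18.5% in control cells. Shares of steady and all sites are not given under this setting, so the contrast with them was not checked there. The cause of these shifts was not tested.

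The 42 windows with lower H3K27ac became 8 with no filter, 11 with DESeq2 and 67 for windows within 500 bases of a site. They ranged from 15 to 44 when single libraries were left out; 25 was the count without NASH replicate 1, 15 without NASH replicate 2 and 23 without control replicate 1. The 99 genes with lower H3K27ac became 54 with DESeq2 and ranged from 47 to 111 without single libraries. Windows called higher numbered 2 with TMM or edgeR, 1 with DESeq2 and 0 in every fit that left out a library. Genes called higher numbered 4 with TMM or edgeR, 1 with no filter, and 0 to 3 without single libraries. The median log2 change of tested windows, −0.86, was −0.61 with TMM, −1.32 for windows that hold a site's midpoint, −1.28 without pairs overlapping by less than 50% of each site, and −1.09 to −0.68 without single libraries. The cause was not tested.

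The labels do not say that a replicate number marks a shared animal or day. The deviations of same-numbered libraries correlated at 0.040 over windows. With so few libraries this cannot show whether same-numbered libraries shared an animal or day. With a replicate block the lower calls were 55 windows and 124 genes, and the Marco window was called (adjusted p 0.0493). The Fos windows changed sign against the authors' scaling: the promoter window had log2 changes of 0.13 with TMM, 0.14 with edgeR, 0.13 with DESeq2 and −0.35 to 0.077 without single libraries. The downstream window had 0.14 with TMM, 0.18 with edgeR, 0.17 with DESeq2 and −0.37 to 0.14 without single libraries. Neither was called under any of them. Windows with few tags limit the test: 170 of the 314 were too low to be tested.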
